A study of Mus musculus with 3 samples.

Results

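The genes described here are 10 genes tied to thermogenic adipocytes, which are *Ucp1*, *Ucp2*, *Ucp3*, *Prdm16*, *Ppargc1a*, *Ppargc1b*, *Dio2*, *Elovl3*, *Tbx1* and *Tnfrsf9*. They were found as every probe, other than control probes, that carries one of these names on the array. This gave 14 of 56605 probes and 10 of 37324 genes. *Ucp2*, *Ppargc1a*, *Ppargc1b* and *Tnfrsf9* had 2 probes each, and the other 6 genes had 1 probe. Where a gene had more than 1 probe, the one brightest on average over the 3 arrays was used for its main value.

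The study asked how small proliferative adipocytes (SPA) differ in gene expression from stromal vascular cells (SVC) and mature adipocytes (MA). The cells of all 3 groups were freed with collagenase from the epididymal fat of C57/BL males aged 20 weeks, with no transgene, drug or other treatment given in the labels. SVC were the cells of the lower phase after a spin at 9 g for 1 sec, SPA were the cells that floated then and sank at 226 g for 3 min, and MA were the cells that floated in both spins. SVC and SPA were cultured in DMEM to 90% confluency before RNA extraction, whereas no culture is described for MA. Cell type, culture and the date in the sample titles therefore cannot be told apart where MA is compared with the other groups. Each group has 1 single-colour Agilent array, labelled from 50 ng RNA, so no difference below has a replicate check and no test was possible. In such bulk RNA, fewer cells of a type and less RNA per cell cannot be told apart.

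Brown and beige adipocytes burn fuel for heat. Noradrenaline released by sympathetic nerves acts on β-adrenergic receptors, cyclic AMP rises, and lipolysis and transcription of thermogenic genes follow. UCP1, the uncoupling protein of the inner mitochondrial membrane, lets protons return to the matrix without ATP synthesis. PRDM16 and the PGC-1 coactivators drive the gene program, and type 2 deiodinase, the product of *Dio2*, makes active thyroid hormone inside the cell. Brown adipocytes carry this program constitutively, while beige cells appear within white fat on cold or β-adrenergic stimulation. *Tbx1* and *Tnfrsf9* (also called *Cd137*) are used as markers of beige cells and their precursors. Epididymal fat is a visceral white depot that is known for browning weakly.

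The probe sequences below show what the array read for the uncoupling proteins and for *Ppargc1a*. They are 60 bases each, with positions in mm9 from the array annotation, and their place in exons or the reading frame was not computed. The *Ucp1* probe lies at chr8:85821788-85821847 on the plus strand, the *Ucp3* probe at chr7:107630399-107630458 on the plus strand, and the second *Ppargc1a* probe at chr5:51849419-51849478 on the minus strand.
Ucp1 probe: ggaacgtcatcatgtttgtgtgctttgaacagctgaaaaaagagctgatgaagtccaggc
Ucp3 probe: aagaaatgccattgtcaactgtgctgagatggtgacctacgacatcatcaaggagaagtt
Ppargc1a second probe: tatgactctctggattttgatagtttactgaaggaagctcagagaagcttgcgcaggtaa

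Levels are given as the processed signal, which is the intensity of a spot after background subtraction, ± the error estimate that the scanner software attaches to that spot on that array. That error covers 1 array and not the spread between animals or cultures. A log2 level is the log2 processed signal minus that of the array's 75th percentile, which was 430 in SVC, 439 in SPA and 366 in MA. Folds were taken between scaled signals. Where 1 array was not well above background for a probe, the fold is a bound, written as at least N-fold. It was taken against the larger of the dim spot's signal and that array's lowest signal well above background. Where the dim spot read the higher of these, as for *Ppargc1a*, *Cox8b* and *Klb* in SPA, the bound equals the plain ratio. No bound allows for the error of the dim spot. A gene was called at 5-fold or more with the brighter array well above background. The arrays were alike in quality, with 58.6% to 61.4% of spots well above background, 0 saturated spots and a median SD of 0.04 to 0.05 on the log2 scale between spots of 1 probe. All 14 probes were free of outlier marks, both for the spot and for its local background, on all 3 arrays.

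The labels were first set against markers. The summed scaled signal of 10 adipocyte markers was 6.71 in SVC, 83.8 in SPA and 3572 in MA, with 8, 10 and 10 of them well above background. The order of the groups by these markers was that of their labels. The 9 fibroblast and progenitor markers summed to 273 in SVC, 151 in SPA and 389 in MA, so their sum was not highest in SVC. Members of that list went both ways. *Pi16* and *Col3a1* were 8.06-fold and 7.32-fold higher in MA than in SPA, while *Pdgfra* and *Pdgfrb* were 4.14-fold and 2.68-fold lower. The 3 *Col3a1* probes disagreed, with log2 ratios of MA over SPA from -2.26 to 2.87, so its direction is not settled. Markers of other cells also differed between the groups. Erythrocyte markers summed to 0.297, 0.335 and 679 in SVC, SPA and MA, endothelial markers to 2.04, 2.38 and 28.8, and all 5 of each list were at least 5-fold higher in MA than in either other group. NK cell markers were well above background for 4 of 4 genes in MA and for 0 in SVC and SPA. Macrophage markers summed to 105, 139 and 64.0, mostly from *Cd68* and *Csf1r*, of which *Cd68* was 8.58-fold lower in MA than in SPA. *C1qa* and *C1qb* went the other way, 9.12-fold and 5.59-fold lower in SPA than in SVC and 11.3-fold and 12.3-fold higher in MA than in SPA. Mesothelial markers summed to 19.1, 5.63 and 19.4, with 4 of 5 at least 5-fold lower in SPA than in SVC and at least 5-fold higher in MA than in SPA. SPA and SVC thus differed in markers of other cells too. The part of these cells in the values below was not tested.

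Of the 10 thermogenic genes, the SVC array read 7 well above background, the SPA array 6 and the MA array 8. *Ucp2*, *Ucp3*, *Ppargc1b*, *Prdm16*, *Dio2* and *Tnfrsf9* were measured in all 3 groups. *Ucp1* and *Ppargc1a* were measured in MA alone, *Tbx1* in SVC alone and *Elovl3* in none. Between SPA and SVC, 0 of 7 genes that could be compared passed 5-fold in either direction, where 0.32% of 22808 genes passed it upward in SPA and 0.351% downward. Between MA and SPA, 2 of 8 were higher in MA (*Ucp1* and *Ppargc1a*) and 1 was lower (*Dio2*), where 5.47% of 24101 genes were higher and 3.97% lower. Between MA and SVC, 2 of 9 were higher in MA (the same pair) and 0 lower, where 5.72% of 23596 genes were higher and 3.96% lower. The last comparisons share the MA array, so their calls are not independent. With so few genes, these counts describe single genes and not a shift of the list. At 2-fold, *Dio2* was higher and *Tbx1* lower in SPA than in SVC, where 3.89% of genes were higher and 3.24% lower. *Prdm16* joined the pair that was higher in MA than in SPA, and *Prdm16* and *Ppargc1b* joined it against SVC, where 15.7% and 17.2% of genes were higher. *Dio2* was lower by that size in MA than in SPA, and *Dio2* and *Tbx1* were lower than in SVC, where 18% of genes were lower in either comparison. The median log2 ratio over the 6 genes measured in every group was 0.54 for SPA over SVC, 0.17 for MA over SPA and 0.86 for MA over SVC, beside 0.05, -0.08 and -0.07 over all genes.

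**Figure D1:**
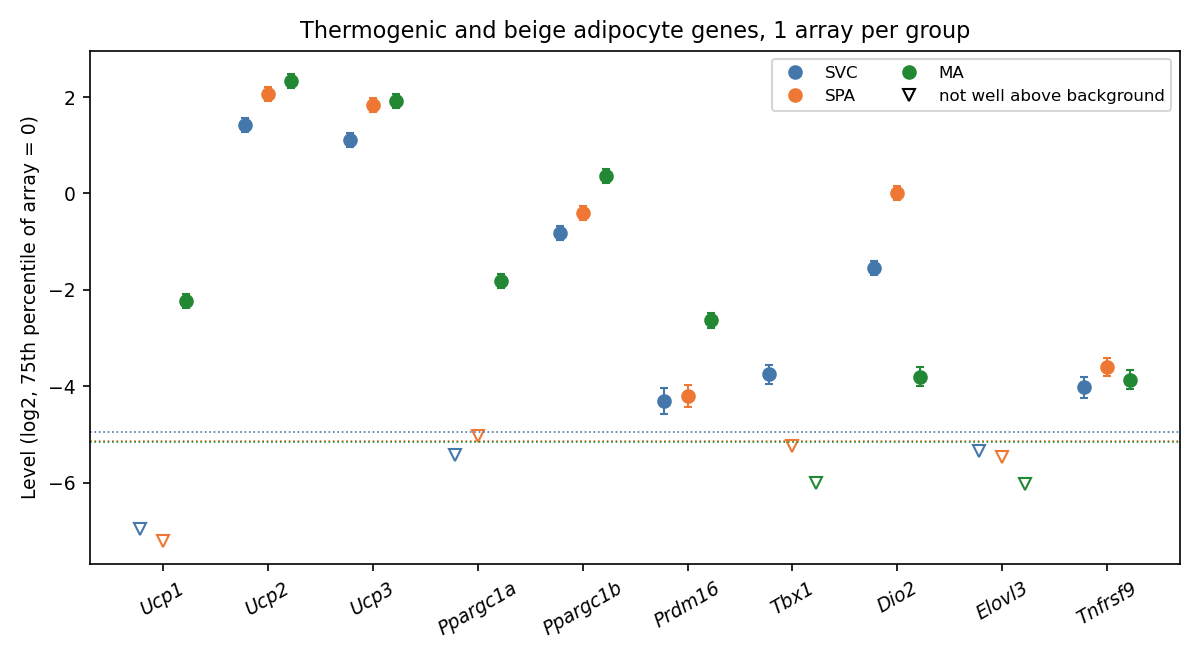
The plot shows the log2 level of each of the 10 genes in SVC, SPA and MA, where 0 is the 75th percentile of the array. Filled circles are well above background with the spot's error estimate as bars, open triangles are not, and dotted lines mark the lowest level well above background on each array; *Ucp1* and *Ppargc1a* have a filled circle in MA alone, and *Dio2* is highest in SPA. Heights of different genes come from different probes and cannot be compared.

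*Ucp1* was detected in MA and not in the cultured groups. Its processed signal was 3.44 ± 3.46 in SVC, 2.98 ± 2.99 in SPA and 78.1 ± 8.22 in MA. The values of SVC and SPA were no larger than their own error. MA was at least 7.51-fold higher than SPA (2.91 on the log2 scale) and at least 6.61-fold higher than SVC (2.73). In MA the log2 level was -2.23, below the 75th percentile of that array. SPA and SVC could not be ordered for *Ucp1*, since both were at background. Under the normexp background correction, which adds an offset of 50 to every spot, the log2 bound became 1.34 over SPA and 1.10 over SVC, under 5-fold with the same direction.

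*Ucp2* and *Ucp3*, relatives of *Ucp1* among the mitochondrial carriers that are not regarded as the main heat producers of adipocytes, were bright in every group. *Ucp2* is widely expressed, macrophages included, and *Ucp3* is best known from skeletal muscle and brown fat. The processed signal of *Ucp2* was 1147 ± 115 in SVC, 1837 ± 184 in SPA and 1840 ± 184 in MA. SPA was 1.57-fold higher than SVC, a log2 ratio of 0.65 with a spot error of 0.20. MA exceeded SPA by 1.20-fold (log2 ratio 0.27, spot error 0.20) and SVC by 1.89-fold (0.92). The second *Ucp2* probe gave 1.55-fold, 1.33-fold and 2.06-fold for the same comparisons, so both probes placed SVC lowest.

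*Ucp3* lies next to *Ucp2* on chromosome 7 and had a similar profile. Its processed signal was 924 ± 92.5 in SVC, 1574 ± 157 in SPA and 1376 ± 138 in MA. SPA was 1.67-fold higher than SVC (log2 ratio 0.74, spot error 0.20), and MA was 1.05-fold higher than SPA (0.07) and 1.75-fold higher than SVC (0.81). After scaling, SPA and MA differed by less than the spot error. Among 9 skeletal muscle markers, *Ckm*, *Myh1*, *Myog* and *Myod1* were not well above background on any array. The summed signal of that list was 9.35 in SVC, 4.11 in SPA and 2.06 in MA. *Acta1* made up most of it. No read of the array separates *Ucp3* RNA of adipocytes from that of other cells.

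*Ppargc1a*, which encodes the coactivator PGC-1α that turns on mitochondrial biogenesis and *Ucp1* transcription, followed the pattern of *Ucp1*. The processed signal was 10.1 ± 3.75 in SVC, 13.5 ± 3.39 in SPA and 104 ± 10.8 in MA. Only MA was well above background. MA was at least 9.28-fold higher than SPA (3.21 on the log2 scale) and at least 8.83-fold higher than SVC (3.14). The value over SPA is the plain ratio to the dim SPA spot, whose error it leaves out. The second probe, printed above, read 3.45 in SVC, 2.97 in SPA and 34.9 in MA. There MA alone was above background again, with bounds of 3.35-fold over SPA and 2.95-fold over SVC, under the 5-fold rule. With the normexp correction the log2 bounds of the first probe were 1.21 over SPA and 1.30 over SVC, likewise under 5-fold.

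*Ppargc1b*, which encodes the related coactivator PGC-1β, was measured everywhere and went up in smaller steps. The processed signal was 242 ± 24.5 in SVC, 332 ± 33.3 in SPA and 469 ± 47.0 in MA. The step from SVC to SPA was 1.34-fold (log2 ratio 0.43, spot error 0.21) and that from SPA to MA was 1.70-fold (0.76, spot error 0.20). MA was 2.28-fold higher than SVC (1.19). The second *Ppargc1b* probe was dimmer, at 16.2, 28.6 and 48.9, and gave 1.73-fold, 2.05-fold and 3.55-fold. The order SVC, SPA, MA was thus shared by both probes, with no step of 5-fold. *Pprc1*, the third member of the PGC-1 family, had log2 ratios of -0.18 for SPA over SVC and -1.15 for MA over SPA. Its probes disagreed in MA over SPA, where their log2 ratios ran from -1.15 to 0.39.

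*Prdm16*, which encodes a zinc finger coregulator that holds the brown and beige program, was dim in all 3 groups and highest in MA. The processed signal was 21.8 ± 3.93 in SVC, 23.8 ± 3.72 in SPA and 59.1 ± 6.37 in MA. SPA and SVC differed by 1.07-fold (log2 ratio 0.10), which is less than the spot error of 0.34. MA was 2.98-fold higher than SPA (1.58, spot error 0.27) and 3.19-fold higher than SVC (1.67, spot error 0.30). With the normexp correction these log2 ratios were 0.65 and 0.66, under 2-fold. The array annotation places this probe on the minus strand of chromosome 4 at 153690234 to 153690238 in mm9, a span of 5 bases for a 60-base probe, so where its full sequence lies in the gene is not given.

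*Dio2* had the widest range of the 6 members measured in all groups and was highest in SPA. The processed signal was 148 ± 15.1 in SVC, 443 ± 44.4 in SPA and 26.3 ± 3.54 in MA. SPA was 2.94-fold higher than SVC (log2 ratio 1.56, spot error 0.21) and 14.1-fold higher than MA (the log2 ratio of MA over SPA was -3.81, spot error 0.24). SVC exceeded MA by 4.78-fold (MA over SVC -2.26, spot error 0.24), just under the 5-fold rule. With the normexp correction the log2 ratios were 1.24 for SPA over SVC, -2.35 for MA over SPA, barely past 5-fold, and -1.10 for MA over SVC. The 3 values did not come within their errors of one another. *Dio2* was the only one of the 10 genes with an excess of SPA over SVC of 2-fold or more. Its direction was the opposite of *Ucp1* and *Ppargc1a* in MA. It is read by 1 probe, on the minus strand at chr12:91963235-91963294. The MA spot of that probe was dim, with a raw signal 2.04-fold its local background.

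The other deiodinases and the thyroid hormone receptors were read beside *Dio2*. *Dio3*, whose enzyme inactivates thyroid hormone, had a processed signal of 183 in SVC, 34.7 in SPA and 11.5 in MA, the last not well above background. SPA was 5.40-fold lower than SVC in *Dio3*, under 5-fold with the normexp correction (log2 ratio -1.35). MA was at least 13.6-fold lower than SVC, likewise under 5-fold with that correction (log2 value -1.66). *Dio2* and *Dio3* therefore ran in opposite directions between SVC and SPA, and both were lowest in MA. *Dio1*, the deiodinase best known from liver and kidney, was dim, at 17.6, 25.9 and 34.4. Of the thyroid hormone receptors, *Thra* was 3.65-fold and *Thrb* 3.18-fold higher in MA than in SPA.

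**Figure D2:**
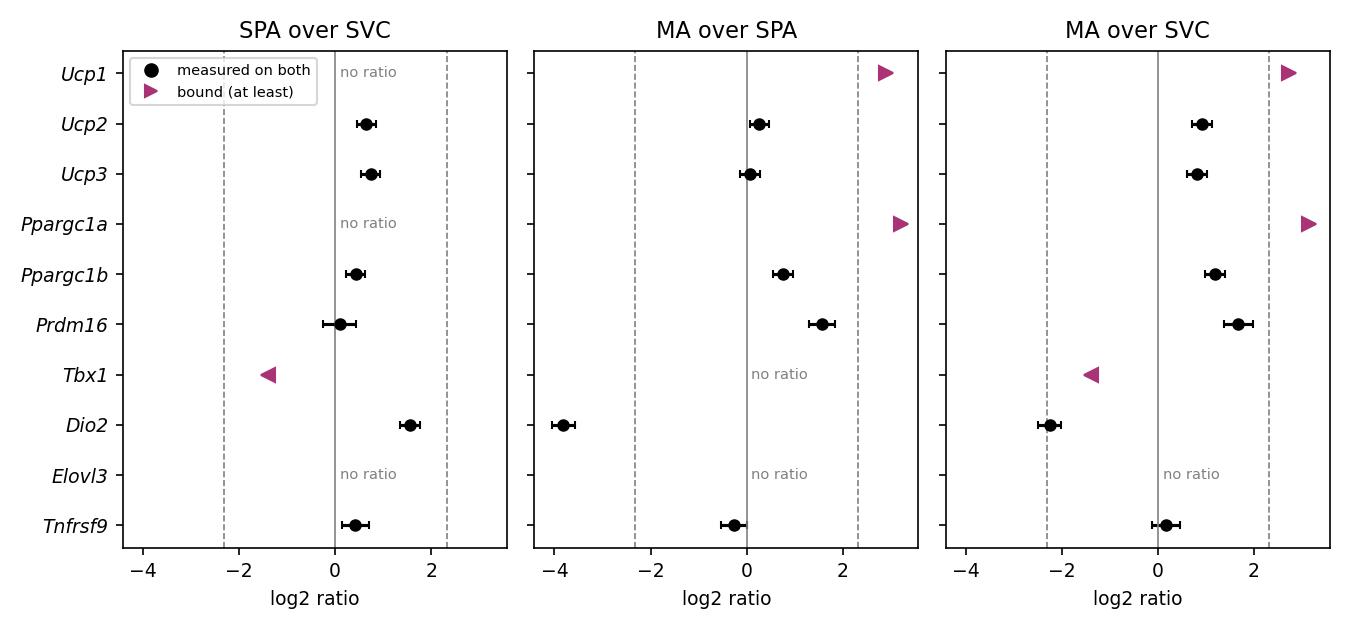
The panels show, for each gene, the log2 ratio of SPA over SVC, MA over SPA and MA over SVC from 1 array per group, with dashed lines at 5-fold. Circles were measured on both arrays, with the combined error of the 2 spots as bars, triangles are bounds that point away from 0, and genes marked as having no ratio were not well above background on either array. *Ucp1* and *Ppargc1a* lie past the 5-fold line in both comparisons of MA, and *Dio2* lies past it on the other side in MA over SPA only.

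*Elovl3*, a fatty acid elongase that cold induces strongly in brown fat, was not well above background on any array. Its processed signal was 10.68 in SVC, 9.93 in SPA and 5.65 in MA, and no fold can be given. Other elongases were readily measured. *Elovl5* and *Elovl6* were 1.70-fold and 2.0-fold higher in MA than in SPA, *Elovl1* was 2.78-fold lower, and *Elovl4* was at least 5.96-fold lower.

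*Tbx1*, a T-box transcription factor, was well above background in SVC only. The processed signal was 32.1 ± 4.39 in SVC, 11.7 ± 2.91 in SPA and 5.66 ± 2.29 in MA. SVC was at least 2.62-fold higher than SPA (-1.39 for SPA over SVC on the log2 scale) and at least 2.65-fold higher than MA (-1.40). Neither bound reached 5-fold, and SPA and MA could not be ordered. With the normexp correction the log2 bounds were -0.39 and -0.33, under 2-fold. Among the T-box relatives, *Tbx5* was at background in SVC and SPA and at least 9.24-fold higher in MA than in SPA. *Tbx18* was 3.43-fold lower in MA than in SPA, *Tbx2* was 2.20-fold higher and *Tbx3* 1.70-fold higher, and *Tbx15* was not well above background anywhere.

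*Tnfrsf9*, a costimulatory receptor of the TNF receptor family that activated T cells also express, was dim and nearly level. The processed signal was 26.5 ± 4.02 in SVC, 36.2 ± 4.50 in SPA and 25.2 ± 3.37 in MA. SPA was highest, by 1.34-fold over SVC (log2 ratio 0.42, spot error 0.28) and by 1.20-fold over MA (MA over SPA -0.26, spot error 0.26). MA over SVC was 0.16 with a spot error of 0.29. The difference of SPA over SVC exceeded the error of the spots, and the others did not. With the normexp correction the log2 ratio of SPA over SVC was 0.17, for which no spot error was computed. The second probe of *Tnfrsf9* read 2.95, 4.49 and 9.73 and was not well above background on any array, with the highest value in MA rather than SPA. With the median of both probes, the log2 ratio of MA over SPA was 0.56 in place of -0.26. T cell markers, which bear on this gene, summed to 10.9 in SVC, 10.8 in SPA and 13.2 in MA, mostly from *Cd3e*, *Cd4* and *Cd247*. Of these 8 markers, *Cd2* was at least 20.5-fold and *Cd3d* 6.16-fold higher in MA than in SPA, and 0 of 6 passed 5-fold between SPA and SVC. Their part in the values of *Tnfrsf9* was not tested. The ligand *Tnfsf9* was 1.91-fold higher in MA than in SPA.

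The promoters of the members that moved furthest are printed from RefSeq (GRCm38.p6) as the 250 bases before the annotated start, because *Ucp1* and *Ppargc1a* went one way in MA and *Dio2* the other. The table of promoters held 8 of the 10 genes. The *Dio2* window is chr12:90739039-90739288 on the minus strand, the *Ucp1* window chr8:83290098-83290347 on the plus strand, and the *Ppargc1a* window chr5:51567726-51567975 on the minus strand. Capitals mark the cyclic AMP response element TGACGTCA, its shorter form TGACG and the TATA box TATAAA, searched on both strands.
Dio2 promoter: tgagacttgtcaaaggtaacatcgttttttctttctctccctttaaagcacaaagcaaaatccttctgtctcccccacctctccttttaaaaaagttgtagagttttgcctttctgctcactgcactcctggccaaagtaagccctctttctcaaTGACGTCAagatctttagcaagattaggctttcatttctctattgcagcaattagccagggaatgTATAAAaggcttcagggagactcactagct
Ucp1 promoter: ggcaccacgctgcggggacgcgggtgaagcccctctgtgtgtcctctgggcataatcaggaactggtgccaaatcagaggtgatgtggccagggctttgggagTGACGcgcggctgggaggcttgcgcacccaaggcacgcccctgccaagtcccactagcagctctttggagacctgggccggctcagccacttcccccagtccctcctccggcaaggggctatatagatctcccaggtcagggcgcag
Ppargc1a promoter: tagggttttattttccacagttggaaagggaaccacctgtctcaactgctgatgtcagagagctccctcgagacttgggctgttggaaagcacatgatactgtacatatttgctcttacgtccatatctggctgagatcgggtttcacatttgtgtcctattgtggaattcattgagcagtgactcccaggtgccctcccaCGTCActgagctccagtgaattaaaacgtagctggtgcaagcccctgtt

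*Dio2* was the only one of these 8 genes with the full element TGACGTCA, starting at base -95 from the start, and with TATAAA, at -30. Of all 32851 promoters, 1.55% held TGACGTCA and 12.4% held TATAAA. The shorter TGACG, which TGACGTCA contains, stood at -147 in *Ucp1* and at -14 in 1 of the promoters of *Tbx1*. On the other strand it stood at -49 in *Ppargc1a* and at -62 in *Ucp2*. Of all promoters, 17.8% held it on either strand. AGGTCA, the core of nuclear receptor sites, stood once in *Ucp1* and at 2 places in *Ucp3*, against 14.0%. *Prdm16* and *Tnfrsf9* had no match to any of these letters. Such matches describe the letters of these windows. The enhancer of *Ucp1*, which is known to lie farther upstream, is outside its window.

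The β-adrenergic receptors and other signals that stand upstream were counted from a list of 24 genes, of which 18, 19 and 24 were well above background in SVC, SPA and MA. Between MA and SPA, 8 of 24 were at least 5-fold higher in MA and 0 lower, beside 5.47% and 3.97% of all genes, and 6 of the 8 passed with the normexp correction too. The median log2 ratio was 0.71 over the 19 measured on both arrays, where that of all genes was -0.08. Of those measured on both arrays, *Npr3*, the clearance receptor for natriuretic peptides, differed most, at 164-fold. *Adrb3*, the β3-adrenergic receptor of adipocytes, was 71.1-fold higher, and *Klb*, the coreceptor for FGF21, at least 62.3-fold higher. *Tshr*, *Ffar4*, *Adrb1*, *Adora2a* and *Prkar2b* made up the rest, at 6.83-fold or more, of which *Adrb1* and *Adora2a* were those under 5-fold with normexp, at log2 values of 1.38 and 1.70. *Klb* and *Npr3* each had a further probe that stayed under 5-fold, with log2 ratios of 0.81 and 1.69. *Creb1*, which binds the cyclic AMP response element, had a log2 ratio of 0.15 for MA over SPA at the probe used. Over the 4 *Creb1* probes with a ratio, the log2 values ran from -1.24 to 1.35, so its direction is not settled.

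Between SPA and SVC, *Adrb3* was the only gene of that list past 5-fold, of 19 compared, beside 0.32% of all genes higher in SPA. Its processed signal was 9.83 in SVC, not well above background, 353 in SPA and 20930 in MA. At this probe the excess of SPA over SVC was at least 24.9-fold, while its second probe gave a log2 bound of 0.80. *Ucp1* and *Ppargc1a* were not detected in SPA, where *Adrb3* was.

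A list of 30 other brown and beige genes had 20 members well above background on the SVC array, 20 on the SPA array and 26 on the MA array. Between MA and SPA, 6 of 27 were at least 5-fold higher in MA and 0 lower, beside 5.47% and 3.97% of all genes, with a median log2 ratio of 0.84 over the 19 measured on both. *Cox8b*, a subunit of cytochrome c oxidase typical of brown fat, was at least 217-fold higher, with 2632 in MA against values at background in SVC and SPA. *Cidea*, a lipid droplet protein, went from 26.4 and 25.5 to 880, or 41.4-fold over SPA. *Car4*, *Pdk4*, *Slc36a2* and *Fgf21* were the others, by at least 51.6-fold, 30.9-fold, 25.0-fold and at least 7.97-fold, and *Fgf21* was the 1 of the 6 under 5-fold with normexp (log2 value 1.26). Between MA and SVC, *Slc27a1* and *Kcnk3* came in addition, 8 of 26 in all beside 5.72% of all genes, and 6 of the 8 passed with normexp too. Some of these genes, *Pdk4* and *Slc27a1* among them, are also expressed in white adipocytes, whose markers were likewise highest in MA; the part of white adipocyte content in these values was not tested.

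Genes used to separate beige from brown lineage differed in level and direction. *Tmem26*, a beige surface marker, was well above background in SPA alone, at 17.3, and at least 1.22-fold higher than SVC. *Cited1* was 1.31-fold and *Ebf2* 1.53-fold higher in SPA than in SVC. *Mpzl2*, also called *Eva1* and used as a brown marker, was 4.22-fold lower in SPA, as mesothelial markers were, and their part in it was not tested. *Kcnk3*, a potassium channel enriched in brown and beige fat, was the only gene of this list past 5-fold in SPA over SVC, at 6.79-fold (log2 ratio 2.76, or 1.27 with the normexp correction), with 20.7 in SVC, 143 in SPA and 281 in MA. *Zic1* and *Myf5*, markers of classical brown precursors, were not well above background in any group, and *Lhx8* was level, with log2 levels of -1.17, -1.11 and -1.25.

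Transcription partners of the PGC-1 and PRDM16 proteins were counted from a list of 30. Of 29 compared between SPA and SVC, 0 passed 5-fold in either direction, beside 0.32% of all genes higher in SPA and 0.351% lower. Between MA and SPA, 6 of 29 were at least 5-fold higher and 0 lower, beside 5.47% and 3.97% of all genes, with a median log2 ratio of 0.50 over 28 genes. *Pparg*, the master factor of adipogenesis, was 5.88-fold higher, after a step of 2.90-fold from SVC to SPA. *Ppara*, which PGC-1α coactivates on genes of fatty acid oxidation, was 14.3-fold higher. *Irf4*, a partner of PGC-1α, was 24.1-fold higher, though its second probe fell just under the rule at a log2 ratio of 2.30. Genes known to restrain browning were among the 6, with *Zfp423* 17.5-fold and *Nrip1* 11-fold higher, and *Lpin1* completed them at 14.8-fold. The mitochondrial regulators *Esrra*, *Nrf1*, *Gabpa* and *Tfam* had log2 ratios of 0.40, -0.58, -0.26 and -0.21 for MA over SPA. The second *Esrra* probe went the other way, at -0.89.

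Heat production that does not need UCP1, through calcium and creatine cycling and other carriers, was read from 20 genes. Of 17 compared between SPA and SVC, 0 passed 5-fold, beside 0.32% of all genes higher in SPA and 0.351% lower. Between MA and SPA, 1 of 18 was higher and 2 lower, beside 5.47% and 3.97% of all genes, with a median log2 ratio of -0.06 over 16 genes. *Slc6a8*, the creatine transporter, was 12.1-fold lower in MA, and *Ckb*, the creatine kinase of the cycle in adipocytes, was 6.06-fold lower. *Gamt*, which makes creatine, was 5.63-fold higher, while *Gatm*, the enzyme of the step before it, was 2.20-fold lower. *Slc6a8* had 5869 in SVC, 10997 in SPA and 756 in MA, and *Ckb* had 6063, 10127 and 1392. Both were thus highest in SPA, as was *Dio2*. *Atp2a2*, the calcium pump, was 1.98-fold lower in MA at the probe used, while its 3 probes had log2 ratios from -0.98 to 0.35. *Slc25a4* and *Slc25a5*, the ADP/ATP carriers, stayed within 0.05 on the log2 scale between MA and SPA.

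Relatives by family made up the last list, of 26 genes. Between SPA and SVC, *Dio3* alone of 20 passed 5-fold, downward, beside 0.32% of all genes higher in SPA and 0.351% lower. Between MA and SPA, 2 of 21 were higher (*Prdm1* at 5.89-fold and *Tbx5*) and 1 was lower (*Elovl4*), beside 5.47% and 3.97% of all genes, and 0 of these 3 passed 5-fold with the normexp correction. *Prdm1* had 20.2 in SVC, 26.0 in SPA and 128 in MA, the same order of arrays as *Prdm16*. *Prdm2* was 1.68-fold lower in MA than in SPA at the probe used. Its 4 probes had no common direction, with log2 ratios of MA over SPA from -0.75 to 0.58.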

How the data were processed

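SVC, SPA and MA of mouse epididymal fat were each profiled with 1 single-colour Agilent array, 3 in all on 1 slide, and samples were grouped by their labels. The authors deposited, per spot, an intensity, namely the background-subtracted processed signal with its error. The software was Agilent Feature Extraction 10.7.3.1, per the submitters' processing notes. The authors also deposited a ratio of that signal to a constant per array, used only as an alternative. Spots of 1 probe were averaged after control spots and outlier spots were left out. Arrays were scaled to their 75th percentile on the log2 scale. The lowest processed signal well above background, which sets bounds, was 13.9 in SVC, 12.5 in SPA and 10.3 in MA. With 1 array per group the number of arrays limits the precision, and no test was run. A gene was called at 5-fold or more, or a bound of 5-fold. All 14 probes carried an accession of the gene they are named for.

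Members and lists were chosen with earlier results of these data known. The named genes are the members, genes of the lists past 5-fold, and their nearest relatives, partners and receptors. One list symbol was updated through its synonym. Alternatives were 8 settings (normexp with an offset of 50, quantile normalization, another percentile, the deposited ratios, no filter, probes measured on both arrays only, the median probe, the probe of largest ratio) and 2 added after seeing the data (a 2-fold rule and leaving out spots of outlying local background). The computation of ratios and bounds was checked on simulated signals. Motifs were searched in RefSeq promoters of GRCm38.p6, and probe positions are in mm9. The normexp correction ran in limma 3.58.1 under R 4.3.3. All else ran in Python 3.11.15, with pandas 2.3.3 and numpy 2.4.6. Results for some genes of the lists are not reported here.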

Additional observations from a re-analysis of the deposited data

How the results depend on the processing

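Of 210 values of the thermogenic genes under the alternatives, 206 stayed on their side of the 5-fold rule. The other 4 were the calls of *Ucp1* and *Ppargc1a* in MA over SPA and over SVC, with normexp. The count of 206 says little of stability, since many values could not move. No member probe had an outlier mark, so leaving out spots of outlying local background removed none. The 18 values from probes measured on both arrays only equal the main ones. In 3 of the 206, none past 5-fold, the sign changed. These were *Tnfrsf9* in MA over SPA with normexp (log2 ratio 0.0075) and with the median probe (0.56), and *Prdm16* in SPA over SVC with quantile normalization (-0.01). The number of genes called higher in MA fell from 2 to 0 over SPA and from 2 to 0 over SVC under the normexp correction, whose offset compresses dim signals. There the log2 bounds were 1.34 and 1.10 for *Ucp1* and 1.21 and 1.30 for *Ppargc1a*, over SPA and SVC. It was likewise 0 in both when probes dim on either array were left out, since neither gene was well above background in SVC or SPA. That setting gave 18 values where quantile normalization gave 24, so the calls lost there are not counted among the 210. *Dio2* remained the 1 gene called lower in MA than in SPA under all settings. In the 5 lists of related genes, 1 of 3 calls in SPA over SVC (*Adrb3*), 20 of 26 in MA over SPA and 21 of 30 in MA over SVC were also made under normexp. Those not made in MA over SPA were *Fgf21*, *Adrb1*, *Adora2a*, *Elovl4*, *Prdm1* and *Tbx5*. In MA over SVC the same genes were not made, and neither were *Kcnk3*, *Thrb* and *Dio3*. With a 2-fold rule, added after seeing the data, 1 gene was higher (*Dio2*) and 1 lower (*Tbx1*) in SPA than in SVC, and 4 were higher and 2 lower in MA than in SVC.

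Signal over background limits *Ucp1*, *Ppargc1a*, *Tbx1*, *Elovl3*, *Prdm16*, *Tnfrsf9* and, in MA, *Dio2*, which lay at or near background on at least 1 array. Without replicates no spread between animals or cultures is known. No paired analysis was possible because each group holds 1 array and no test was run.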
